A study of Mus musculus with 2 samples.

Results

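The G2 and M phase genes are 48 genes whose transcripts build up in the last stages of cell division, and all 48 were found by symbol among the 32285 genes of both deposited matrices. They were chosen by name, with earlier results of these data known. Of the 48, 36 known as transcripts of dividing cells are called core members here. The other 12 were named from general knowledge, with those results known, as also carried by resting cells. They are called broad members (Hmgb2, Cks2, Cks1b, Tmpo, Smc4, Anp32e, Tubb4b, Ncapd2, Lbr, Ckap5, G2e3 and Cbx5). The cells were leukocytes taken from the inflamed colon of C57BL/6 mice with experimental colitis, profiled one by one with a droplet kit that counts the 3′ ends of transcripts by unique molecular identifiers (UMIs). There was 1 library labelled WT and 1 labelled CKO. The series title names the loss of RPA1, a subunit of the protein that covers single-stranded DNA, in T cells. The Cre driver, the deleted exons, the way colitis was induced, the age and sex of the mice and their number per library are not stated in any source used here.

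A cell that divides copies its DNA in S phase, prepares for division in G2 and separates its chromosomes in M phase, or mitosis. Entry into mitosis is driven by the kinase CDK1 with B-type cyclins, the spindle checkpoint then holds the cell until every chromosome is attached, and the anaphase-promoting complex with its activator CDC20 ends mitosis by marking cyclin B and securin for destruction. Most of these genes are silent in resting cells, because the DREAM complex of the retinoblastoma family holds their promoters closed, and B-MYB and FOXM1 switch them on in G2. Lymphocytes divide after they meet antigen, germinal centre B cells are among the fastest dividing cells of the body, plasmablasts divide before they become resting plasma cells, and mature neutrophils have left the cycle.

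A pair of short motifs is known for such promoters: the cell cycle homology region, TTTGAA in its common form, and the CCAAT box that NF-Y binds. RefSeq promoters on GRCm38.p6, 250 bases before to 50 bases after each start, were matched by symbol for 42 of the 48 members, which had 46 entries. From 150 bases before the start to 50 bases after it, TTTGAA or its reverse complement TTCAAA was present in 29 of 46 entries (63.0%), against 11.2% of all 32851 promoters. CCAAT or its reverse complement ATTGG was present in 33 of 46 (71.7%), against 28.6% of all promoters. Both were present in 23 of 46 (50%), against 3.30% of all promoters. The motifs were searched on both strands and can share no more than an end letter, and a match is a description of letters, not of a bound site. The 150 bases before the start are shown for the 6 members followed in every comparison, 5′ to 3′ on the gene's strand, with both motifs in capitals. They lie at chr7:135716380-135716529 (minus strand) for Mki67, chr11:99024190-99024339 (minus) for Top2a, chr10:69352913-69353062 (minus) for Cdk1, chr9:70421555-70421704 (minus) for Ccnb2, chr4:118437344-118437493 (minus) for Cdc20 and chr8:57511693-57511842 (plus) for Hmgb2.
Mki67: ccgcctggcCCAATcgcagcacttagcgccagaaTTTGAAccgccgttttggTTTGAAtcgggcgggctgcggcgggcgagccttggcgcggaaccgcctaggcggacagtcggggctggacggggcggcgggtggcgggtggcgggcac
Top2a: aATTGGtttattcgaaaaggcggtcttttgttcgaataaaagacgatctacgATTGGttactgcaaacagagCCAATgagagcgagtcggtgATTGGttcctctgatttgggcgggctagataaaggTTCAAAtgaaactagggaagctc
Cdk1: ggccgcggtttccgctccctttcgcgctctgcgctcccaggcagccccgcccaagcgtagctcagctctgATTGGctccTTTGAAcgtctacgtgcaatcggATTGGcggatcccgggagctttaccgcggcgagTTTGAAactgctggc
Ccnb2: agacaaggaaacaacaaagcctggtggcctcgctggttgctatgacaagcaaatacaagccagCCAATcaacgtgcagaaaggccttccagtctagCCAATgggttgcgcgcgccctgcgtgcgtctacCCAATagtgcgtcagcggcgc
Cdc20: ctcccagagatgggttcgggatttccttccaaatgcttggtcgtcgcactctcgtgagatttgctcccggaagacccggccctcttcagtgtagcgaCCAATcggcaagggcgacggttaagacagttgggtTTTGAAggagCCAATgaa
Hmgb2: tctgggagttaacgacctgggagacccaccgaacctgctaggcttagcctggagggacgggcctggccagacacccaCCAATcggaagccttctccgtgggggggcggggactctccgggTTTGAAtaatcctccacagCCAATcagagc

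In these 6, the shown stretch holds 1 to 4 CCAAT or ATTGG motifs. TTTGAA stands in 5 of them, and in Ccnb2 it lies outside the shown stretch, 4 bases after the start and 167 bases before it. Among core members TTTGAA was present in 69.7% of entries and among broad members in 46.2%.

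The WT-labelled library held 2924 retained cells and the CKO-labelled library 10942, with medians of 4136 and 3334 UMIs per cell, and 6 cell barcodes occurred in both. Cells were clustered without the cell cycle genes, so that classes formed without the members, and clusters were named from fixed markers. Levels are given as UMIs per 1000000 UMIs of a class (CPM), which need no length term because the kit counts 3′ ends. Rpa1 was at 43.2 CPM in T-like cells of the WT-labelled library (99 UMIs) and at 61.2 in those labelled CKO (193 UMIs). A 3′ count need not lie in the deleted part of the gene, so this does not check the label. With 1 library per group there is no replicate check and no test between groups, and genotype, animal, cell preparation and library cannot be told apart. All intervals are exact 95% intervals (Poisson for sums, binomial for shares, conditional for ratios) that cover counting error only. Every ratio is log2 of the CKO-labelled library over the WT-labelled library, on the CPM scale.

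Over all retained cells the core members summed to 597 CPM (585 to 608) in the WT-labelled library and 462 (456 to 467) in the CKO-labelled library. The sums spread widely over the cell classes. The highest level was that of 65 germinal centre B-like cells of the WT-labelled library, with 3808 CPM (3671 to 3948), and the CKO-labelled library had 3 such cells with 5 core UMIs. That contrast in cell number depended on the clustering: with the cycle genes kept in it, a cluster led by Pclaf, Mki67 and other cycle genes took the germinal centre B-like name, with 89 cells of the WT-labelled and 85 of the CKO-labelled library at 4018 and 3227 CPM. It held 54.4 and 24.1% of all core UMIs, and 24 dividing B-like and 30 dividing plasma-like cells of the CKO-labelled library went into it. T-like cells were at 724 (690 to 760) and 1328 (1288 to 1368), and NK-like cells at 321 (247 to 410, 33 cells) and 1331 (1283 to 1379, 353 cells). B-like cells were at 400 (383 to 418) and 371 (362 to 380), and plasma-like cells at 366 (349 to 383) and 467 (453 to 482). T-like and NK-like cells thus read higher in the CKO-labelled library and plasma-like cells a little higher. B-like cells read a little lower, at 374 and 355 without the cell of most member UMIs in each library. With the cycle genes kept in the clustering, dividing cells left each of these classes in the CKO-labelled library, and the levels were 291 and 383 CPM in T-like, 317 and 503 in NK-like, 277 and 244 in B-like and 62.7 and 70.3 in plasma-like cells.

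Among the other classes, mast-like cells were at 1448 CPM in 9 cells of the WT-labelled library and 734 in 55 cells of the CKO-labelled library. Without the 1 mast-like cell of most member UMIs in each library, these values became 326 and 538. DC-like cells were at 332 and 484, ILC2-like cells at 169 and 291 and ILC3-like cells at 326 and 236. Monocyte and macrophage-like cells at 223 and 266 and neutrophil-like cells at 261 and 169 were in the lowest part of the range, and fibroblast-like cells, at 54.7 (3 UMIs) and 57.4, were lower still.

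**Figure D1:**
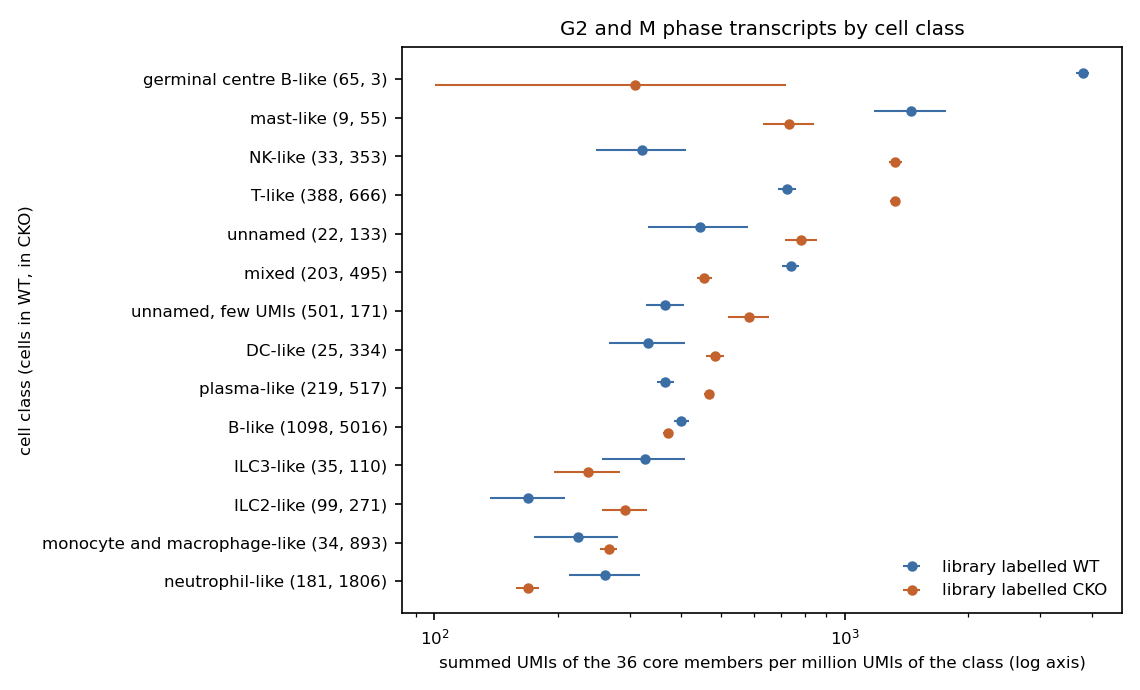
Core member level in CPM of a class (log axis) in each cell class, with the number of cells in brackets; points are the 2 libraries and bars are exact 95% Poisson intervals, which cover counting error only. Germinal centre B-like cells labelled WT stand highest at 3808, and T-like cells are at 724 in the WT-labelled library and 1328 in the CKO-labelled library.

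The broad members set the level of resting cells. Their sum was 1328 and 1112 CPM over all cells, and 1101 and 1354 in neutrophil-like cells, which have left the cycle. Hmgb2, a DNA-bending chromatin protein, was the most abundant member in each of the classes described above except fibroblast-like cells, at 747 and 629 CPM in B-like cells, 1031 and 1410 in T-like cells and 549 and 775 in neutrophil-like cells. Cks2, a small subunit of cyclin-dependent kinases, was at 312 and 274 in neutrophil-like cells, against 99.0 and 89.2 in T-like cells. Lbr, a receptor of the inner nuclear membrane that shapes the lobed neutrophil nucleus, was at 118 and 223 in neutrophil-like cells and at 109 and 147 in T-like cells. A UMI of these genes therefore marks resting as well as dividing cells.

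Within germinal centre B-like cells of the WT-labelled library, every one of the 48 members had a UMI. The largest were Hmgb2 at 3481 CPM, Mki67, the coat protein of mitotic chromosomes that is used as the general proliferation marker, at 581, and Top2a, the topoisomerase that untangles chromosomes, at 430. The cyclin Ccnb2 was at 112, Cdc20 at 83.6 and the kinase Cdk1 at 70.5. The lowest were Gtse1 at 5.22 (4 UMIs) and the phosphatase Cdc25c at 6.53 (5 UMIs). Of the 36 cells of this class with an Mki67 UMI, 32 held at least 3 other core members and the median cell held 20 others. The 8 marker genes of the germinal centre class summed to 1756 CPM in these cells, against 43.7 in B-like cells of the same library. The cluster got its name from these same genes, so this contrast is not separate evidence for the name.

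**Figure D2:**
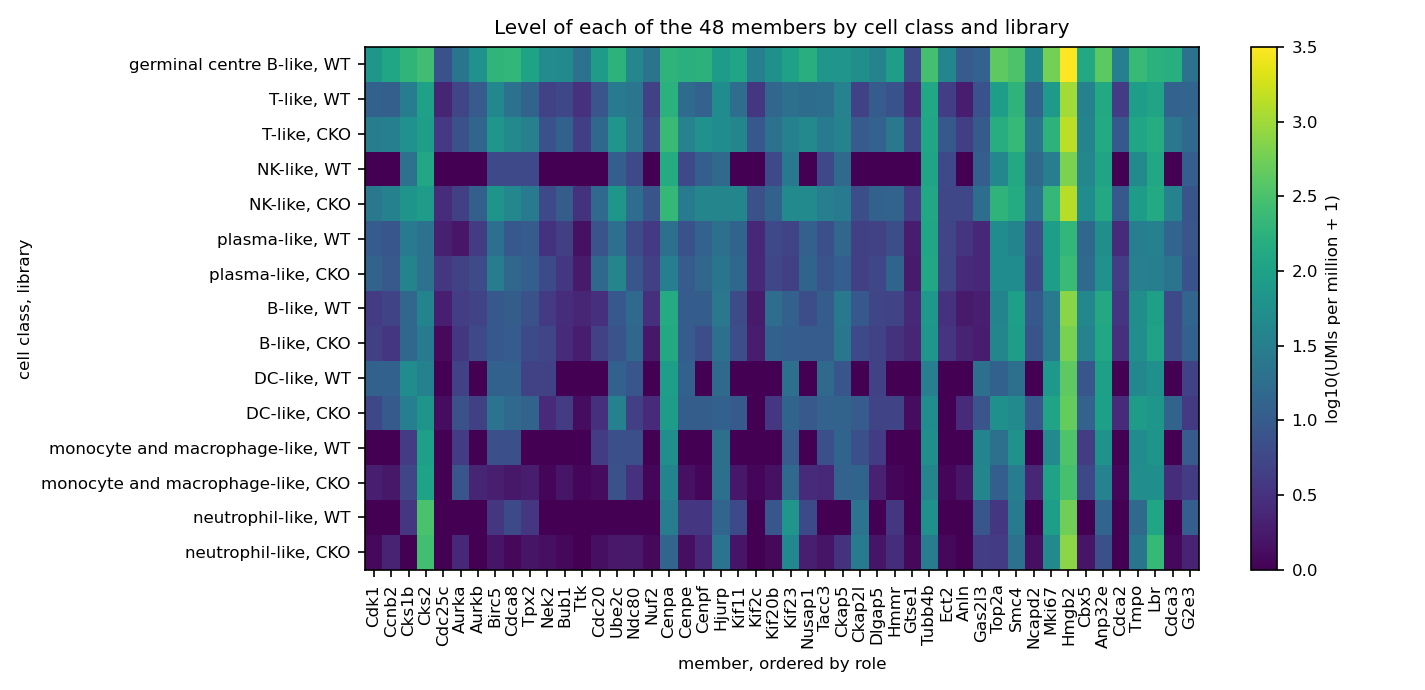
Level of each of the 48 members, as log10(CPM + 1), in 8 cell classes of each library, with members ordered by role from CDK1 regulators to nuclear envelope and other genes; the 3 germinal centre B-like cells labelled CKO are not drawn. The row of germinal centre B-like cells is the brightest for core members, while Hmgb2, Cks2 and Lbr are bright in neutrophil-like cells too.

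To count dividing cells, every cell was cut down by random draws to 1000 UMIs and called dividing when it then held at least 2 core UMIs. This is a range of a score and not a cell type: in the WT-labelled library 445 cells lay just below the limit with 1 core UMI and 100 just inside it with 2, and in the CKO-labelled library 1784 and 318. By this limit 169 of 2626 cells (6.44%, 5.53 to 7.44) were dividing in the WT-labelled library and 512 of 10605 (4.83%, 4.43 to 5.25) in the CKO-labelled library. Neutrophil-like cells, with median depths of 2039 and 2580 UMIs before thinning, gave 2.52% (4 of 159) and 2.83% (49 of 1730). They are taken as the background of cells that have left the cycle, and shares of 2 to 3% are read here as background. In a T-like subset led by Lef1, a gene of resting T cells, 4.0% (6 of 150) and 6.19% (6 of 97) passed the limit. Lymphocyte shares near these values are thus not told apart from background by this limit.

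T-like cells gave 22 of 383 cells (5.74%, 3.63 to 8.57) in the WT-labelled library and 88 of 653 (13.5%, 10.95 to 16.3) in the CKO-labelled library, at median depths of 4750 and 3982 UMIs. The intervals of neutrophil-like cells were 0.69 to 6.32 and 2.10 to 3.73%. All of these cover the counting of cells within 1 library and do not test the groups. Without thinning the shares were 41.2 and 43.7%. In B-like cells 64 of 1088 (5.88%, 4.56 to 7.45) and 183 of 4954 (3.69%, 3.19 to 4.26) were dividing. Germinal centre B-like cells reached 44.3% (27 of 61, 31.5 to 57.6) in the WT-labelled library, against 0 of 3 cells. Plasma-like cells were at 4.57% (10 of 219) and 6.21% (32 of 515), and NK-like cells at 9.09% (3 of 33) and 13.5% (47 of 348). DC-like cells were at 4% (1 of 25) and 6.42% (21 of 327). The shares of ILC2-like cells, 1.02 and 2.35%, did not pass those of neutrophil-like cells. In monocyte and macrophage-like cells, 2 of 32 and 30 of 847 cells passed the limit (6.25 and 3.54%), which goes against the order of their summed levels, so no order is read.

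A stricter measure, chosen after the data were seen, asked for at least 3 different core members in the thinned cell. It left 61 cells (2.32%) in the WT-labelled library and 146 (1.38%) in the CKO-labelled library. Neutrophil-like cells then gave 0 of 159, which allows a share of up to 2.29%, and 2 of 1730 (0.116%). Germinal centre B-like cells kept 37.7% (23 of 61), T-like cells 2.09% (8 of 383) and 5.51% (36 of 653), NK-like cells 3.03% (1 of 33) and 8.05% (28 of 348), and plasma-like cells 3.196% (7 of 219) and 4.08% (21 of 515). B-like cells came down to 0.643% (7 of 1088) and 0.505% (25 of 4954). Cenpa, the histone variant of centromeres, made 35.4 and 35.5% of all core UMIs of B-like cells, against 5.01% in germinal centre B-like cells. Most B-like cells past the first limit therefore did not show 3 different core members after thinning. A thinned cell with exactly 2 core UMIs cannot do so, and what such cells held before thinning is not given here.

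**Figure D3:**
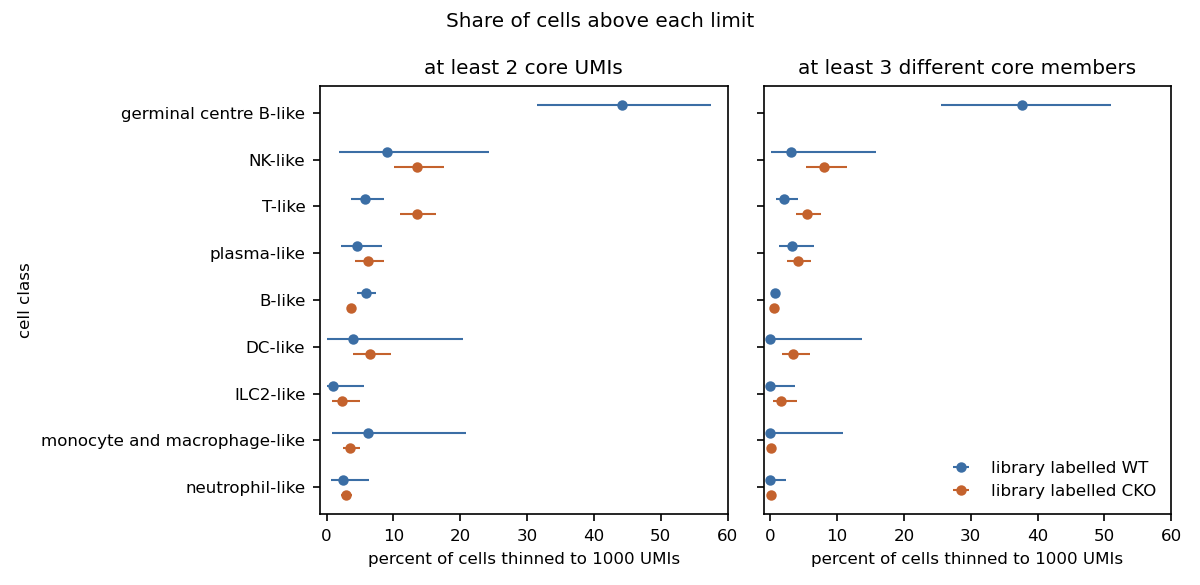
Percent of cells, each thinned to 1000 UMIs, with at least 2 core UMIs (left) or at least 3 different core members (right) in 9 cell classes; points are the libraries, bars are exact 95% binomial intervals, and groups under 10 cells are not drawn. Germinal centre B-like cells labelled WT stand apart at 44.3 and 37.7%. Neutrophil-like cells, which have left the cycle, are at 2.52 and 2.83% on the left and at 0 and 0.116% on the right.

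The dividing cells of the WT-labelled library were in B-like cells for 37.9% (64 of 169), germinal centre B-like cells for 16.0%, T-like cells for 13.02% and plasma-like cells for 5.92%, while these classes made 41.4, 2.32, 14.6 and 8.34% of its cells of at least 1000 UMIs. Clusters of few UMIs without a name held 10.1% and mixed clusters 9.47%. In the CKO-labelled library, B-like cells held 35.7% (183 of 512), T-like cells 17.2%, neutrophil-like cells 9.57%, NK-like cells 9.18% and plasma-like cells 6.25%, while they made 46.7, 6.16, 16.3, 3.28 and 4.86% of its cells. With at least 3 different core members the germinal centre B-like class led in the WT-labelled library with 37.7% of such cells, and B-like and plasma-like cells held 11.5% each and T-like cells 13.1%. In the CKO-labelled library the same measure put T-like cells first with 24.7%, before NK-like cells with 19.2%, B-like cells with 17.1%, plasma-like cells with 14.4% and DC-like cells with 7.53%.

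The core transcripts sat in few cells. In the WT-labelled library 34 cells (1.16%) held 50% of all core UMIs and in the CKO-labelled library 160 cells (1.46%), while 42.6 and 47.6% of cells held none. In T-like cells 6 and 19 cells held 50%, in plasma-like cells 6 and 13, and in germinal centre B-like cells 8 of 65. The largest single T-like cells held 242 and 276 core UMIs, or 14.6 and 6.60% of the class. Counting intervals treat UMIs as independent and are too narrow for sums held by so few cells.

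Genes that took no part in the call were higher in dividing cells of most classes. A list of 55 other mitotic genes, such as the kinase Plk1 and the cyclins Ccnb1 and Ccna2, summed to 2599 CPM in dividing and 319 in other T-like cells of the WT-labelled library (log2 3.03, 2.87 to 3.19), and to 3483 and 262 in the CKO-labelled library (3.73, 3.60 to 3.86). The 49 S phase genes summed to 5309 and 1448 (log2 1.87) and to 4966 and 1284 (1.95), and the broad members were higher by 1.98 and 1.92 on the log2 scale. The list of 20 cycle inhibitors and quiescence genes was lower by a log2 difference of -0.44 and -0.27, and the G1 list was higher by only 0.22 and 0.20. In plasma-like cells the other mitotic genes were higher by 4.07 and 3.84 and the S phase genes by 3.47 and 3.44.

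Neutrophil-like cells past the same limit had smaller differences. Their other mitotic genes stood at 105 against 189 CPM in the WT-labelled library (-0.85, -6.17 to 1.68) and at 208 against 82.1 in the CKO-labelled library (1.34, 0.67 to 1.95), and their S phase genes at 208 against 163 (0.35, -0.32 to 0.94) in the latter. In 30 monocyte and macrophage-like cells of the CKO-labelled library the corresponding log2 differences were 0.93 and 0.55. In 21 DC-like cells they were 3.36 and 2.48, and in 47 NK-like cells 3.496 and 1.75, beside 3.73 and 1.95 in T-like cells of that library. Of the dividing T-like cells, 4 of 22 and 4 of 88 also held a UMI of the B cell gene Cd79a (18.2 and 4.55%), against 9.14 and 5.31% of the other T-like cells. The part of doublets in these cells was not tested.

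Across T-like cells the members read higher together in the CKO-labelled library. Of the 44 members with at least 20 UMIs over both libraries, 24 were at least 1.5-fold higher in the CKO-labelled library and 0 at least 1.5-fold lower, while 12.6% of all 9262 genes read were that much higher and 7.32% that much lower. At 2-fold, 18 members were higher and 0 lower, against 4.48 and 1.97% of all genes read. The median log2 ratio was 0.77, against 0.06 over all genes read. Below 20 UMIs, and so not read, were 4 members: Cdc25c, Ttk, Gtse1 and Anln. Most members past the fold were core members, with 22 of 32 past the fold and a median of 1.06, against 2 of 12 broad members and a median of 0.22. Summed, the core members were at 724 and 1328 CPM (log2 0.87, 0.79 to 0.96) and the broad members at 1900 and 2407 (0.34, 0.29 to 0.40). This depended on which cells formed the class: with the cycle genes kept in the clustering, 7 of 22 and 41 of 88 dividing T-like cells went to an unnamed cluster led by cycle genes. In the T-like class formed that way the core ratio was 0.40. Of 22 members read there, 5 were higher and 2 lower past 1.5-fold, against 13.1 and 7.92% of 8661 genes read, with a median of 0.04.

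Among CDK1 and its regulators 3 of 4 members read were past the fold. Cdk1, the mitotic kinase itself, was at 11.3 CPM (26 UMIs) and 29.8 (94 UMIs), a log2 ratio of 1.40 (0.76 to 2.08). Its cyclin Ccnb2 was at 10.5 and 31.1 (1.57, 0.92 to 2.28). Both were higher in the CKO-labelled library, in 36 and 40 cells with a UMI against 9 and 9. The kinase subunit Cks1b was at 28.8 and 58.7 (1.03), while its relative Cks2 was at 99.0 and 89.2 (-0.15, -0.41 to 0.11), the smallest ratio of all members read.

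Of the mitotic kinases and the chromosomal passenger complex, which corrects wrong attachments and sits at the centromere, 4 of 6 were past the fold. Tpx2, the spindle factor that activates Aurora A, was at 12.2 and 32.7 (1.42, 0.81 to 2.08). The passenger subunits Cdca8 (borealin) and Birc5 (survivin) were at 20.1 and 42.8 (1.09) and at 41.8 and 65.7 (0.65). The Aurora kinases Aurka and Aurkb, with 10 and 20 and with 21 and 40 UMIs, had ratios of 0.54 (-0.62 to 1.80) and 0.47 (-0.33 to 1.31), intervals that include no difference. All 3 checkpoint and anaphase-promoting complex members read were past the fold. Ube2c, the ubiquitin carrier of that complex, was at 27.0 and 65.7 (1.28), the checkpoint kinase Bub1 at 4.80 and 11.1 (1.21) and Cdc20 at 7.41 and 14.3 (0.95, 0.11 to 1.84). With the cycle genes kept in the clustering, the Cdc20 ratio turned to -0.84. With subsets weighted alike and no Cd8a Itgae cells, the ratios of Bub1, Birc5 and Aurkb turned to -0.41, -0.36 and -0.57.

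The centromere and kinetochore members divided into those past the fold and those near no difference. Cenpf, a kinetochore protein made in G2, had the largest ratio of the 44, with 11.8 CPM (27 UMIs in 7 cells) and 57.4 (181 UMIs in 38 cells), a log2 ratio of 2.29 (1.70 to 2.93). The motor Cenpe was at 15.7 and 34.9 (1.15). Hjurp, the chaperone that places CENP-A, was at 49.3 and 50.1 (0.03), Ndc80, which grips the microtubule, at 22.7 and 23.8 (0.07) and Cenpa at 169 and 225 (0.41, 0.23 to 0.59). Over both libraries Cenpa had 377 UMIs in dividing and 717 in other T-like cells, Hjurp 143 and 127 and Ndc80 74 and 52, whereas Cdk1 had 109 and 11.

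Of the kinesin motors, Kif2c, which takes microtubules apart, was at 2.62 and 8.25 (6 and 26 UMIs, 1.66), Kif11, which pushes the spindle poles apart, at 17.0 and 39.3 (1.21) and Kif23 of the central spindle at 18.3 and 33.3 (0.86). Kif20b, at 13.5 and 19.0 (0.49), was within the fold. Of the spindle proteins, Hmmr was at 6.54 and 24.4 (1.90, 1.09 to 2.81) and Nusap1 at 16.1 and 43.2 (1.42), while the microtubule polymerase Ckap5, at 34.4 and 35.5 (0.05), and the tubulin Tubb4b, at 126 and 119 (-0.09), did not differ beyond their intervals. The cytokinesis factor Ect2 was at 3.49 and 8.25 (1.24, 0.06 to 2.60).

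In chromosome structure and chromatin, Mki67 was at 75.4 CPM (173 UMIs in 22 cells) and 182 (574 UMIs in 86 cells), a log2 ratio of 1.27 (1.02 to 1.53). Top2a was at 87.6 and 152 (0.79, 0.55 to 1.04), and Cdca2, which brings a phosphatase to chromatin at the end of mitosis, at 3.05 and 8.25 (1.43). Hmgb2 was at 1031 and 1410 (0.45, 0.38 to 0.53), below the fold and at -0.06 with subsets weighted alike and no Cd8a Itgae cells, and Anp32e, a histone chaperone, at 135 and 137 (0.03). The nuclear envelope genes Tmpo and Lbr, at 90.2 and 116 and at 109 and 147, were also below it (0.36, or -0.20 in that same setting, and 0.44), and of the last group Cdca3 was at 11.8 and 23.8 (1.02) and G2e3 at 12.6 and 14.6 (0.21).

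**Figure D4:**
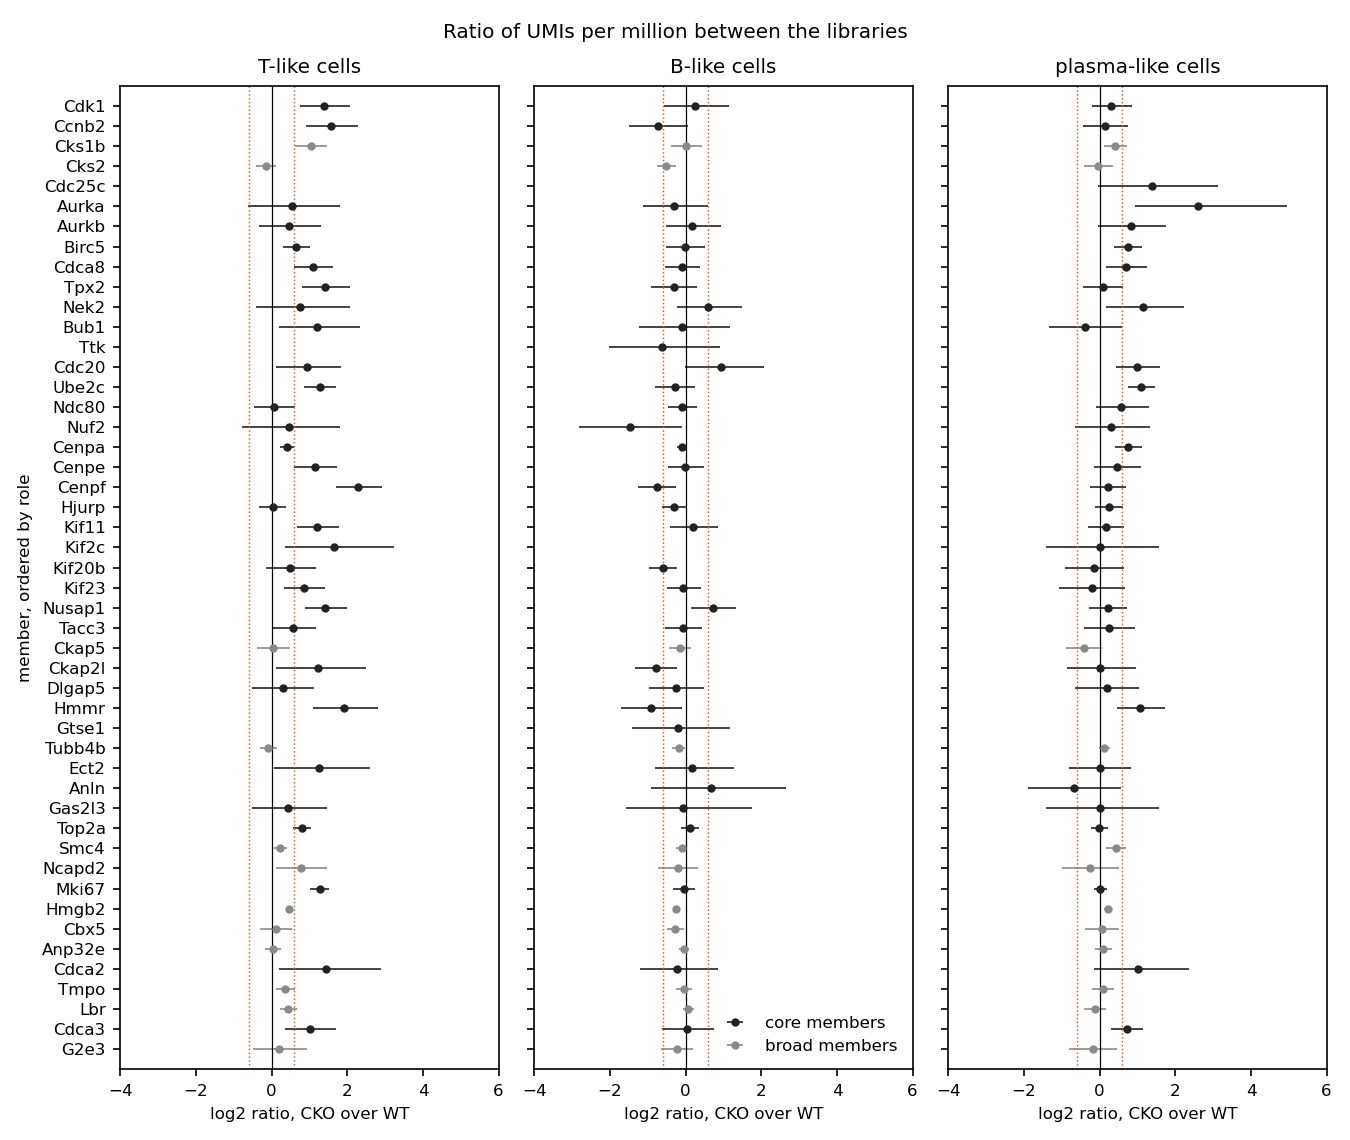
log2 ratio (CKO-labelled over WT-labelled library) of each member with at least 20 UMIs over both libraries in T-like, B-like and plasma-like cells, ordered by role; bars are exact 95% intervals covering counting error only and dotted lines mark 1.5-fold. In T-like cells 24 of 44 points lie right of the upper line and 0 left of the lower one, while in B-like cells 4 and 7 of 46 and in plasma-like cells 12 and 1 of 46 do.

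The T-like class was not made of the same subsets in both libraries, and the core members differed between subsets. Lef1 cells, named after a gene of resting T cells that led their clusters, made 39.7% of T-like cells in the WT-labelled library and 14.7% in the CKO-labelled library, and their core sums were the lowest at 291 and 289 CPM. Ikzf2 Cd7 cells, the largest subset of the CKO-labelled library, made 26.3 and 24.3%. Cd8a Itgae cells, led by Cd7, Gzma, Ccl5, Itgae and Cd8a, made 2.58% (10 cells) and 19.4% (129 cells). They were at 479 (31 UMIs) and 2247 (1561 UMIs), a log2 ratio of 2.23 (1.72 to 2.79), and they held 37.3% of all core UMIs of T-like cells in the CKO-labelled library. CD8 T-like cells were at 2252 and 2270 (0.01, -0.13 to 0.15), the highest level in the WT-labelled library. With the cycle genes kept in the clustering, a cluster with Cd7, Gzma, Itgae and Cd8a was at 439 and 427 (9 and 110 cells). A cluster led by Ccl5, Cd8a and Cd8b1 was then at 264 and 282 (41 and 56 cells). The unnamed cluster led by cycle genes was at 4092 and 5894 (11 and 83 cells). The markers of NK cells summed to 5457 and 9904 CPM in Cd8a Itgae cells and to 3633 and 2969 in CD8 T-like cells, the highest of the 7 subsets, and their part in the result was not tested.

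CD4 T-like cells were at 1004 and 1346 (0.42), gamma-delta T-like cells at 721 and 1245 (0.79), Treg-like cells at 418 and 727 (11 and 14 cells) and Ikzf2 Cd7 cells at 479 and 532 (0.15). In CD4 T-like cells of the WT-labelled library a single cell held 123 of 157 core UMIs (78.3%), and without the cell of most member UMIs in each library the subset was at 320 and 1117 (1.80). In the CD8 T-like subset that step gave 1726 and 1700 (-0.02). In gamma-delta T-like cells 1 cell held 49.0 and 47.0% of the core UMIs, and without these cells the subset was at 391 and 738 (0.92). Ikzf2 Cd7 cells became 318 and 498 (0.65). Mki67 was at 266 and 380 in CD8 T-like cells, at 15.5 (1 UMI) and 345 in Cd8a Itgae cells and at 20.1 and 0 in Lef1 cells. Cenpf had 0 and 64 UMIs in Cd8a Itgae cells, 16 and 47 in CD8 T-like cells and 0 and 43 in CD4 T-like cells.

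With the 7 subsets given the same weight in both libraries, the core sum of T-like cells was 770 and 1135 CPM (0.56). Of the 44 members 17 were then past 1.5-fold upward and 0 downward, against 10.7 and 8.23% of all genes read, with a median of 0.47. With the Cd8a Itgae cells left out as well it was 817 and 954 (0.22), 6 of 44 members were past 1.5-fold upward and 0 downward, against 8.95 and 10.1% of all genes read, and the median was 0.20. The ratio of core sums was thus smaller once subsets had the same weight, and smaller again without the Cd8a Itgae cells. Within subsets, the share with at least 3 different core members was 9.43% (5 of 53) and 11.3% (8 of 71) in CD8 T-like cells. It was 4.35% (1 of 23) and 4.76% (6 of 126) in CD4 T-like cells. Cd8a Itgae cells gave 0 of 10 and 12.5% (16 of 128). Lef1 cells gave 0 of 150 and 0 of 97, which allow shares of up to 2.43 and 3.73%. Past the 2-UMI limit they had 4.0% (6 of 150) and 6.19% (6 of 97). Ikzf2 Cd7 cells had 1.98% (2 of 101) and 14.7% (23 of 156) past the 2-UMI limit. By the stricter measure they had 0.99% (1 of 101) and 1.92% (3 of 156).

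**Figure D5:**
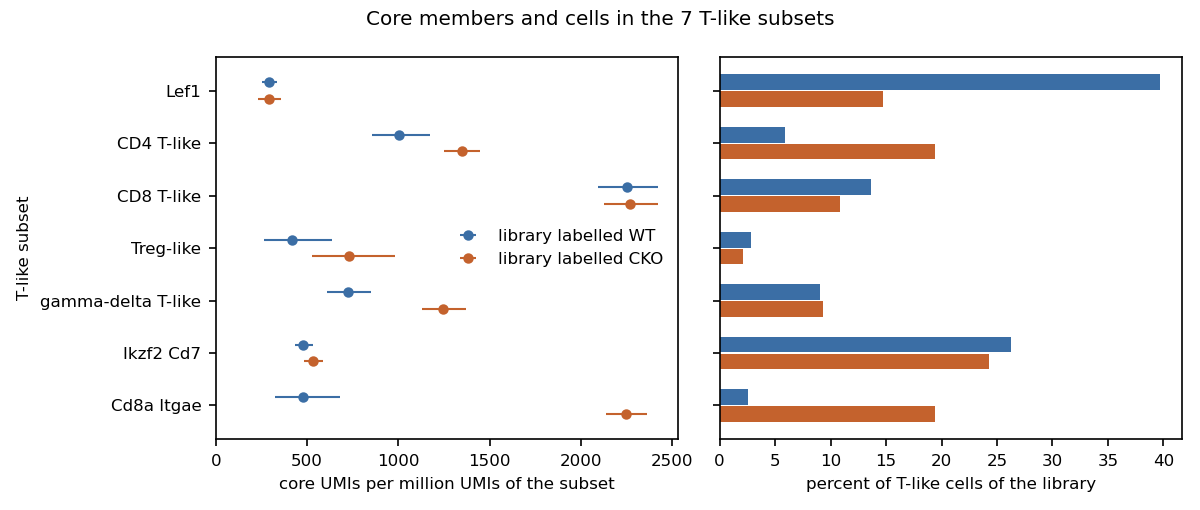
Left, core member CPM in each of the 7 T-like subsets with exact 95% Poisson intervals that cover counting error only; right, the percent of T-like cells of each library in the subset. CD8 T-like cells are at 2252 and 2270 in the WT-labelled and CKO-labelled libraries, while Lef1 cells, at 291 and 289, make 39.7 and 14.7% of T-like cells.

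Of the other cell cycle lists in T-like cells, the mitotic one had the largest share of genes past the fold. Of 48 other mitotic genes read, 31 were past 1.5-fold upward and 0 downward, with a median of 0.82. The largest were the glycosylase Neil3 with 2 and 23 UMIs (3.07, 1.05 to 6.19), separase Espl1 at 1.74 and 8.25 CPM (2.24), the kinetochore protein Knstrn at 3.49 and 14.6 (2.07) and the phosphatase Cdkn3 at 3.92 and 13.3 (1.76). Of 49 S phase genes, 9 were past the fold upward and 2 downward, with a median of 0.21. Over all genes read in T-like cells 12.6% were that much higher and 7.32% that much lower, which is the background for each list here. The recombination factor Rad51ap1 was at 3.92 and 10.8 (1.46) and the origin licensing factor Cdc6 at 3.92 and 10.5 (1.42). Of 13 G1 genes read 3 were upward and 0 downward, led by E2f1 at 2.62 and 6.66 (1.35, -0.01 to 2.95). Of 19 inhibitors and quiescence genes 4 were upward and 2 downward, among them Cdkn2c at 4.80 and 10.8 (1.17) and Klf2, a factor of resting T cells, at 358 and 183 (-0.96, -1.12 to -0.81).

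In B-like cells the members differed little between the libraries. Of 46 members read, 4 were at least 1.5-fold higher in the CKO-labelled library and 7 lower, against 5.87 and 6.59% of all 10727 genes read, and the median ratio was -0.10, against -0.03 over all genes. At 2-fold, 0 were higher and 1 lower, against 2.47 and 1.83% of all genes read. Mki67 was at 26.6 and 25.7 CPM (-0.05, -0.33 to 0.24), Top2a at 37.1 and 40.0 (0.11) and Cdk1 at 3.105 and 3.68 (0.24). Ccnb2 was at 4.27 and 2.57 (22 and 44 UMIs, -0.73, -1.50 to 0.08) and Cdc20 at 1.94 and 3.73 (10 and 64 UMIs, 0.94, -0.03 to 2.07). Hmgb2 was at 747 and 629 (-0.25, -0.30 to -0.19). The largest ratios after Cdc20 were those of Nusap1 at 5.82 and 9.57 (0.72), Anln, a scaffold of the cleavage furrow, with 4 and 21 UMIs (0.66, but -0.14 with the cycle genes kept in the clustering and -0.36 with each cell scaled to the same total) and the kinase Nek2 with 15 and 75 UMIs (0.59). The lowest were those of Nuf2 with 10 and 12 UMIs (-1.47, -2.81 to -0.10), Hmmr (-0.91), Ckap2l (-0.78) and Cenpf at 9.70 and 5.72 (-0.76).

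Within B-like cells the core UMIs were unevenly spread over clusters. A cluster led by Dnajc7, Apoe and Ccr6 was at 904 and 836 CPM, and a cluster led by Egr3, Myc and Irf4, genes of recent activation, at 210 and 166. A cluster led by Hspd1 and Mybbp1a was at 723 and 309. Of the other lists in B-like cells, 6 of 49 other mitotic genes were past the fold upward and 5 downward, and 8 of 49 S phase genes upward and 2 downward, beside 5.87 and 6.59% over all genes read. The S phase genes included the helicase Brip1 with 4 and 49 UMIs (1.88) and Cdc6 with 4 and 47 UMIs (1.82). Klf2 was at 595 and 251 (-1.25).

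Plasma-like cells, marked by Jchain, Mzb1 and immunoglobulin transcripts, had a core ratio of 0.35 (0.27 to 0.43). Of 46 members read, 12 were at least 1.5-fold higher in the CKO-labelled library and 1 lower, against 7.67 and 8.0% of all 9442 genes read, with a median of 0.20. Mki67 was at 87.3 and 88.2 CPM (0.02, -0.16 to 0.19) and Top2a at 49.2 and 48.9 (-0.01), differences within their intervals for both general markers of proliferation. Cdk1 was at 9.59 and 11.9 (0.31), Ccnb2 at 7.71 and 8.54 (0.15) and Hmgb2 at 210 and 246 (0.23, 0.12 to 0.34). At 2-fold, 6 were higher and 0 lower, against 2.71 and 2.45% of all genes read. Of the 12 members past 1.5-fold, 7 came from a pair of role groups: 5 of 6 kinases and passenger proteins and 2 of 3 checkpoint members.

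Among those, Cdc20 was at 6.88 and 13.7 CPM (0.996, 0.43 to 1.60), Ube2c at 17.9 and 38.3 (1.10, 0.75 to 1.46) and Hmmr at 5.83 and 12.3 (1.07, 0.46 to 1.72). Aurka had 3 and 34 UMIs (2.61, 0.94 to 4.96), Cdc25c 5 and 24 (1.37), Nek2 11 and 45 (1.14) and Cdca2 8 and 30 (1.02, but -0.82 with the cycle genes kept in the clustering). The lowest ratios were those of Anln with 12 and 14 UMIs (-0.67, -1.89 to 0.57), Ckap5 (-0.41) and Bub1 (-0.39). In the WT-labelled library 1 plasma-like cell of a cluster led by Ighv7-3 held 285 of 1756 core UMIs (16.2%), and this cluster was at 776 and 47.3 CPM. Without the cell of most member UMIs in each library the class was at 310 and 439 (0.50, 0.42 to 0.59). With the cycle genes kept in the clustering, 10 of 10 and 30 of 32 dividing plasma-like cells joined the cluster with the germinal centre B-like name. Of 17 members then read in the plasma-like class 2 were past the fold upward and 0 downward, against 6.4 and 10.2% of 8927 genes read. In the plasma-like class formed without the cycle genes, 19 of 47 other mitotic genes read were upward and 1 downward, beside 7.67 and 8.0% over all genes read. Among them were Ska3 at 3 and 29 UMIs (2.38) and the condensin subunit Ncapg at 5.63 and 14.7 CPM (1.39).

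NK-like cells of the CKO-labelled library carried the core members at 1331 CPM, beside 1328 in T-like cells of that library. With the cycle genes kept in the clustering, 34 of its 47 dividing NK-like cells went to a cluster without a name, and the class was at 503 CPM in 367 cells and held 4.27% of the core UMIs instead of 11.5%. In the WT-labelled library the class had only 33 cells and 64 core UMIs, in which 1 UMI came to 5.01 CPM. Mki67 had 6 and 478 UMIs, at 30.1 and 215 CPM (2.84, 1.70 to 4.29), and Top2a 8 and 419, at 40.1 and 188 (2.23). Cdk1, Ccnb2 and Cdc20 had 0 UMIs against 54, 75 and 33, at 24.2, 33.7 and 14.8 CPM. The bound taken here for a count of 0 was 3 counts, or 15.04 CPM. Cdc20 was thus not distinguishable at this depth. Hmgb2 was at 647 and 1321 (1.03, 0.78 to 1.30).

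Cells with an Mki67 UMI held other core members to different extents across classes. In T-like cells 10 of 22 and 52 of 86 cells with Mki67 held at least 3 other core members (45.5 and 60.5%), and in NK-like cells 3 of 3 and 47 of 75. In neutrophil-like cells 0 of 18 and 2 of 119 did, and 11 and 80 of them held no other core member. Cells were not thinned for this count. Those with Mki67 had median depths of 9857 and 7690.5 UMIs in T-like cells and 2279.5 and 2629 in neutrophil-like cells. The part of depth in the contrast was not tested. Mki67 was nevertheless at 86.9 and 44.5 CPM in neutrophil-like cells, and with Kif23, Ckap2l, Hjurp and Cenpa it made most of their core UMIs, 33.3 and 26.4% for Mki67 and 25.5 and 25.1% for Kif23. Cdk1 had 0 and 1 UMI there, Top2a 1 and 17, and Aurkb, Ttk and Cdc25c 0. Within neutrophil-like cells of the CKO-labelled library, a cluster led by Clec4n, Ccl3 and Il23a was at 224 CPM for Mki67 (118 UMIs in 265 cells, 185 to 268), with 0 UMIs of Top2a. In monocyte and macrophage-like cells of the CKO-labelled library Mki67 was at 103 and made 38.6% of the core UMIs, while Cdk1 was at 0.986 and Cenpf at 0.141. Of their 270 cells with Mki67, at a median depth of 9312.5 UMIs, 22 held at least 3 other core members.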

How the data were processed

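Single cells of 2 libraries were read from the deposited matrices of raw UMI counts, which the authors made with Cell Ranger (6.0.1 per the file headers, 5.0.0 per the submitters' processing notes, which also name Seurat 3.2.3 and mm10). The libraries held 2972 (WT) and 11311 (CKO) barcodes with 18627050 and 57740083 UMIs. Barcodes under 200 genes or over 20% mitochondrial UMIs were left out, and Scrublet, run per library, removed 1 and 213 cells (0.0342 and 1.91%). It marked almost none in the WT-labelled library, so doublets there were in effect not removed. With scanpy 1.11.5, cells scaled to 10000 UMIs were clustered on 2000 variable genes without cell cycle genes (30 components, 15 neighbours, Leiden resolution 1), again within compartments, and named from fixed markers, with at least 3 detected. Mixed clusters and those without a name form no class, a rule set after the clusters were seen. UMIs were summed per class and library and divided by the class total. A gene was read with at least 20 UMIs over both libraries and counted at 1.5-fold, and members were ordered by role. For the other lists, the genes of largest ratio on a list were named. Intervals came from scipy 1.17.1. The scripts were tested on simulated data. The members and lists were chosen with earlier results of these data known. Cell cycle genes in the clustering, doublets, mitochondrial and UMI limits, denominators, scaling, thinning, folds and single cells were varied.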

Additional observations from a re-analysis of the deposited data

Results flagged for a closer look

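The core members' log2 ratio of the CKO-labelled over the WT-labelled library had opposite signs in classes under the same contrast. It was 0.87 in T-like cells and -0.11 in B-like cells, and 0.35 in plasma-like cells against the same -0.11. Without the B-like cell of most member UMIs in each library, the B-like ratio was -0.07 (-0.15 to 0.002). That interval includes no difference. With 1 library per group these differences were not tested.

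Core UMIs were also present in cells that no named class holds and no comparison uses. Clusters with markers of several classes held 1678 core UMIs in the WT-labelled library and 2315 in the CKO-labelled library. Their totals were 2269233 and 5085764 UMIs. A mixed cluster led by Tnfrsf4, Trac and Cd6, with markers of T and B cells, had 83 and 61 cells. Clusters of few UMIs without a name held 340 and 310, and the other clusters without a name held 53 and 479. The single cell with most core UMIs, with 610 of them (5.51% of the WT-labelled library), lay in a mixed cluster. Without the cell of most member UMIs in each library, the mixed clusters were at 486 and 438 CPM. The order was thus opposite to that of T-like cells. Clusters of few UMIs were then at 305 and 382 and the other unnamed clusters at 412 and 691. All of the core UMI counts given here are above 3 counts, the bound taken for a count of 0.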

How the results depend on the processing

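With the cell cycle genes kept in the clustering, core ratios were 0.40 (T-like), -0.18 (B-like) and 0.17 (plasma-like), and the T-like difference in dividing cells was 3.099 percentage points instead of 7.73. B-like cells then held 31.1%, T-like cells 8.40%, germinal centre B-like cells 11.1% and NK-like cells 4.69% of dividing cells in the CKO-labelled library, and germinal centre B-like cells 27.8% in the WT-labelled library. Past the fold, T-like members then numbered 5 upward and 2 downward (median 0.041) and plasma-like members 2 upward and 0 downward (median -0.13). Cdc20 in T-like cells (-0.84), Anln in B-like cells (-0.14) and Cdca2 in plasma-like cells (-0.82) reversed, as did Anln in B-like cells with each cell scaled alike (-0.36), where the T-like median was 1.22. Without the top cell of each library core ratios were 0.99 (T-like), -0.07 (B-like) and 0.50 (plasma-like), and 2 plasma-like members were lower.

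Dividing shares in the CKO-labelled minus the WT-labelled library were 12.7 points at 1 core UMI and 2.46 without thinning in T-like cells. Unthinned they were -11.4 in B-like and -4.12 in plasma-like cells, and -0.41 in B-like cells at 3 core UMIs. At 3 core UMIs B-like cells held 18.8 and 20.1% of dividing cells, germinal centre B-like cells 27.5% (WT), and T-like and NK-like cells 23.2 and 17.5% (CKO). With 3 different core members, chosen after seeing the data, differences were 3.42 (T-like) and -0.14 (B-like) points, and the shares held were 11.5 and 17.1% (B-like), 37.7% (germinal centre B-like, WT), 24.7% (T-like, CKO) and 19.2% (NK-like, CKO). Also added after seeing the data, leaving out Cenpa, Mki67, Kif23, Hjurp and Ckap2l gave core ratios of 1.02 (T-like) and 0.45 (plasma-like). Equal subset weights, of which the second setting was added, gave 0.56 with a members' median of 0.47, and without Cd8a Itgae cells 0.22 with 6 higher members and a median of 0.20.

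At 2-fold, B-like members were 0 higher and 1 lower and plasma-like members 6 and 0. In T-like cells 14 other mitotic genes were higher, 5 S phase genes higher and 1 lower, 1 G1 gene higher, and 1 inhibitor higher and 0 lower. In B-like cells 1 other mitotic gene was higher and 1 lower, and 5 S phase genes higher and 0 lower. In plasma-like cells 3 other mitotic genes were higher and 0 lower, and 5 S phase genes higher and 0 lower. For those settings the cause was not tested, beyond the stricter folds and limits themselves.

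Of the main values checked, 47 moved and 63 did not under planned settings, and 14 moved and 8 did not under added ones. With the cycle genes kept in the clustering, 15 moved and 8 did not. Those that did not move changed by less than their counting interval or, for counts, 1.5 times. No paired analysis was possible because each group has 1 library, and leaving out a replicate could not be done for the same reason. Depth limits the NK-like and germinal centre B-like comparisons, with 33 and 3 cells in the smaller group, and the latter number became 85 (WT 89) with the cycle genes kept in the clustering.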

Other observations

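S phase transcripts stood in different proportion to the core members in different classes. The 49 S phase genes had 2.54 UMIs per core UMI in T-like cells of the WT-labelled library and 1.53 in those of the CKO-labelled library, and 2.78 and 3.12 in B-like cells. Plasma-like cells were at 1.70 and 1.63, germinal centre B-like cells of the WT-labelled library at 1.59 and NK-like cells at 3.33 (64 core UMIs) and 1.56. T-like cells were thus lower in the CKO-labelled library and B-like cells higher. In T-like cells the S phase sum itself was 1841 and 2031 CPM, while the core sum was 724 and 1328. Cells not called dividing also held S phase transcripts, so no shift between phases is read from this proportion. The part of the share of dividing cells in it was not tested.

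Klf2, a transcription factor of resting lymphocytes, was lower in the CKO-labelled library in each of T-like, B-like and plasma-like cells, at 358 and 183, 595 and 251, and 137 and 52 CPM. Of 19 inhibitors and quiescence genes read, 4 were past 1.5-fold upward and 2 downward in T-like cells, against 12.6 and 7.32% of all genes read. In B-like cells 0 and 2 were, against 5.87 and 6.59%, and in plasma-like cells 0 and 3, against 7.67 and 8.0%. Lef1 cells made 39.7 and 14.7% of T-like cells, and their part in the Klf2 difference was not tested. In T-like cells of both libraries together Klf2 was at 139 CPM in dividing cells and 280 in other cells. Plk1, the polo kinase of mitotic entry, had 37 UMIs in dividing T-like cells and 1 in the others.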
